A study of Homo sapiens with 16 samples.

Results

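Reverse transcription (RT) stops of HCT116 colorectal carcinoma cells were compared between libraries treated with CMC and Terminator and untreated CMC- libraries, at every position that the deposited tables of both replicates list. CMC is a carbodiimide that stays bound to pseudouridine after an alkaline wash, so that reverse transcriptase stops at the modified base, and Terminator is an exonuclease that degrades RNA with a 5′ monophosphate. The replicate tables list 113370 and 103050 positions, and 55202 positions stand in both, which is 48.7% of the first and 53.6% of the second. Positions with an identical surrounding sequence were counted once, which left 35716 distinct sequences, 12882 of them centred on U, of 719918 positions over the 10 tables of the series.

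The comparison uses 4 of the 16 samples. The HCT116 CMC+Terminator group has 2 replicates, genotype wild type, whose treatment label reads CMC+, RA3+, AP5+, Terminator+, DA3+ and XhoI. The HCT116 CMC- group has 2 replicates of the same genotype, whose label reads CMC-, RA3+ and DA3+, so the groups differ in CMC and also in AP5, Terminator and XhoI. Both started from polyadenylated RNA broken into fragments of about 250 nt, and for the CMC+Terminator group the protocol gives 0.2 M CMC for 20 min and carbonate for 6 h. The series also holds HCT116 cells with DKC1 knocked down by a short hairpin (HCT116-shDKC1), HEK293T embryonic kidney cells, and CMC+ libraries made without Terminator, which are used below where they bear on HCT116. The deposited names of the HCT116 and HCT116-shDKC1 data both carry Lacz, and whether it marks a control construct was not established. Nothing in the labels says that replicates came from separate cultures, so p-values are set against the spread between these libraries, which may be technical. They also take no account of how the tables select positions, given below. Library totals were 22493497 and 24001583 reads in CMC+Terminator, against 27272112 and 31261783 in CMC-. At tested positions the median number of covering reads was 172 and 188 in CMC+Terminator, against 300.0 and 402 in CMC-, and the median number of stop reads was 12 and 12, against 12 and 14. Of 15 colorectal epithelial marker genes, 7 had a listed position, led by the keratins KRT8, KRT18 and KRT19, while CDX2, VIL1 and CDH17 had none. None of 9 leukocyte and none of 9 fibroblast and endothelial markers had a listed position.

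Pseudouridine is an isomer of uridine in which the base is joined to the sugar through carbon instead of nitrogen. In human cells, box H/ACA RNAs guide the synthase dyskerin (DKC1) to uridines of rRNA and spliceosomal snRNA, and stand-alone synthases such as PUS7 and TRUB1 read the sequence and fold of tRNA and some mRNA. Spliceosomal snRNAs carry pseudouridine at well-known nucleotides, and nearly all tRNAs carry it in the loop of the T arm, so that these RNAs hold uridines at which a CMC stop has a known counterpart.

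The sequences at which the stop percent differed most are shown first, because the results below refer back to them. Each is 5′ to 3′ RNA from the deposited tables (hg38), with the uridine or other base of the stop in capitals, and runs 10 bases to either side where the RNA is long enough. The first set holds snRNA uridines that are textbook pseudouridines, the second rRNA and tRNA, the third mitochondrial tRNA and the last mRNA.
U4 nucleotide 72, RNU4-1: uugaaaacuuUucccaauacc
U4 nucleotide 79, RNU4-1: cuuuucccaaUaccccgccgu
U5 nucleotide 43, RNU5B-1: uuucgccuuuUacuaaagauu
U5 nucleotide 53, RNU5B-1: uacuaaagauUuccguggaga
U2 nucleotide 44, RNU2-1: uaguaucuguUcuuaucaguu
U6 nucleotide 40, listed as RNU6-4P: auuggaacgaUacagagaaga
U1 nucleotide 5, listed as RNVU1-7: auacUuaccuggcag
28S rRNA 3804: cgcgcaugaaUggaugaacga
28S rRNA 3744: acggcgggagUaacuaugacu
28S rRNA 4518: gagcuggguuUagaccgucgu
tRNA-His-GTG-1-8 54: caaccucgguUcgaauccgag
tRNA-Gly-GCC-1-1 53: aggcccggguUcgauucccgg
tRNA-His-GTG-1-8 13: cgugaucguaUagugguuagu
tRNA-Glu-CTC-1-2 13: ccugguggucUagugguuagg
MT-TE 25: aauacaacgaUgguuuuucau
MT-TH 24: aaccaaaacaUcagauuguga
MT-TV 65: acuugaccgcUcuga
RPL19 147: aaggucugguUagaccccaau
RPL11 413: gucagauccuUuggcauccgg
SLC2A1 1827: ccugaaugguUccaugccuga
EZR 1650: gcugucuaguGagggcauccg

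Stop percent, the stop reads over the reads covering the position, was tested at 29091 distinct sequences with at least 20 covering reads in each library and at least 20 stop reads over the 4 libraries. A position was called higher where edgeR's quasi-likelihood test gave a Benjamini-Hochberg adjusted p under 0.05 and the fold was at least 2. At U, 1887 of 10466 tested sequences were called higher in CMC+Terminator than in CMC- (18.0%). At other bases, which cannot be pseudouridine, 2885 of 18625 were called higher (15.5%), and over all bases 4772 of 29091 were (16.4%). The median log2 change was 0.69 at U and 0.57 at other bases. None was called lower at either, and none was lower at an unadjusted p under 0.05 with edgeR, since each table lists no position whose stop percent is below that of its control. The tables also list no position under 5 treated stop reads or under 1 control stop read, so the direction at every position and the sign of each median are fixed by the listing, as is the order of the groups within each replicate. Where libraries are said below not to overlap, this is a description and no test. Positions thus entered the test already selected in the tested direction, and the p-values and adjusted p-values do not correct for this. The counts at other bases give the scale against which those at U can be read.

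The order of U and the other bases depends on the scale. Against the total reads of each library in place of the covering reads, 1098 U (10.5%) and 3157 other positions (17.0%) were called higher. The 2 replicates gave related changes: across the 29091 sequences, which share libraries and are not independent, Pearson's r of the log2 ratio was 0.54. Of the 1887 called U, 1483 were at least 2-fold higher in each replicate taken alone (78.6%), and of the 2885 other called positions 2255 were (78.2%).

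**Figure D1:**
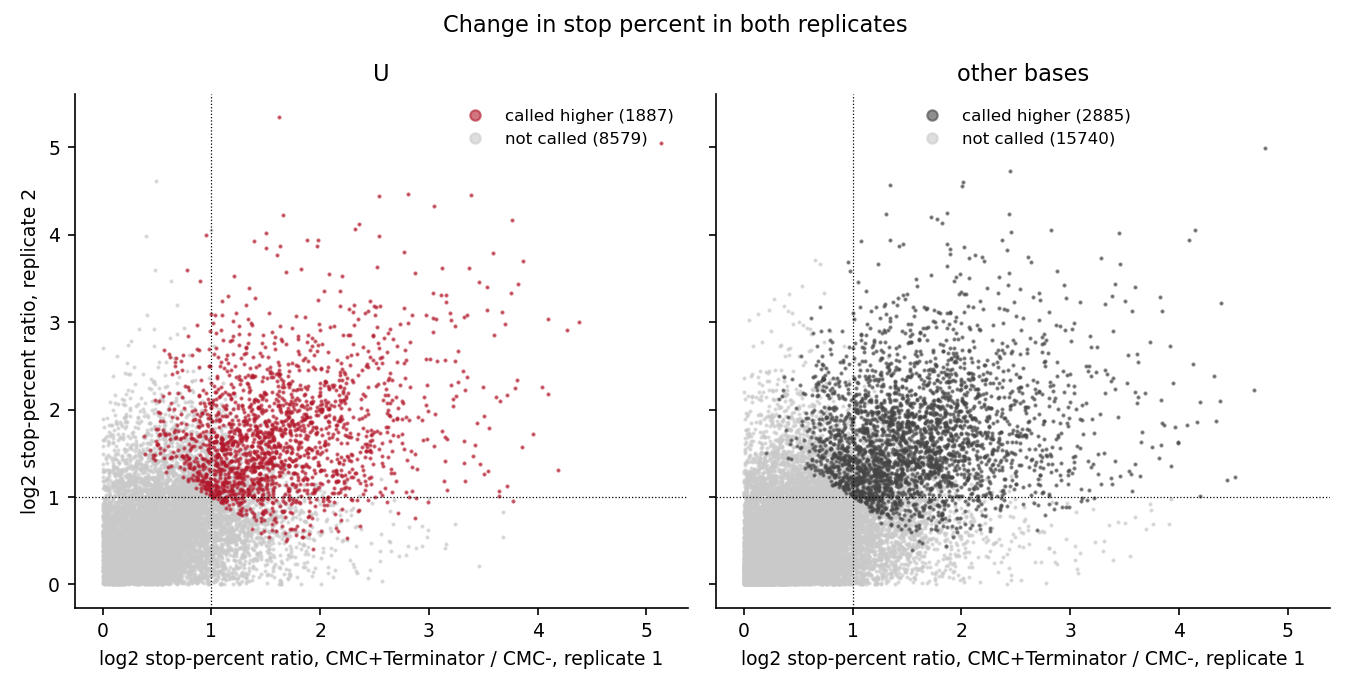
Each point is 1 tested sequence, with the log2 ratio of stop percents (CMC+Terminator over CMC-) of replicate 1 on the x axis and of replicate 2 on the y axis, for U on the left and other bases on the right. Dotted lines mark a 2-fold change; no point lies below 0 because of the listing, and both panels hold a cloud of called positions, 1887 at U and 2885 at other bases.

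RNA classes differed in whether U stood apart from the other bases. In snRNA, 21 of 49 U sequences were called higher (42.9%), against 7 of 37 other positions (18.9%). Nuclear tRNA gave 38 of 85 U (44.7%) and 23 of 103 other positions (22.3%), and mitochondrial tRNA 34 of 75 U (45.3%) and 23 of 108 other positions (21.3%). Nuclear rRNA gave 168 of 706 U (23.8%) and 259 of 2427 other positions (10.7%). In nuclear mRNA the shares lay side by side, with 1189 of 5054 U (23.5%) and 1861 of 8042 other positions (23.1%). Long noncoding RNA and the spacers of the 45S rRNA precursor were similar to mRNA in this, with 16.5% of U against 18.1% of other bases and 15.7% against 18.4%. Scaled to library totals, the U share stayed above that of other bases in snRNA (46.9% and 16.2%), nuclear tRNA (43.5% and 21.4%) and mitochondrial tRNA (26.7% and 14.8%), whereas in nuclear rRNA it fell slightly below (31.7% and 33.5%) and in nuclear mRNA further below (10.6% and 16.1%). Single libraries decided many calls in tRNA, mRNA and long noncoding RNA. Without the second CMC- library 25.9% of U and 8.74% of other bases were called in nuclear tRNA, 36.7% and 2.70% in snRNA, 33.3% and 14.8% in mitochondrial tRNA, 22.9% and 9.15% in nuclear rRNA, 8.35% and 8.97% in nuclear mRNA and 3.67% and 5.93% in long noncoding RNA. Without the first CMC+Terminator library the shares were 11.4% and 11.8% in nuclear mRNA and 7.95% and 10.1% in long noncoding RNA.

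**Figure D2:**
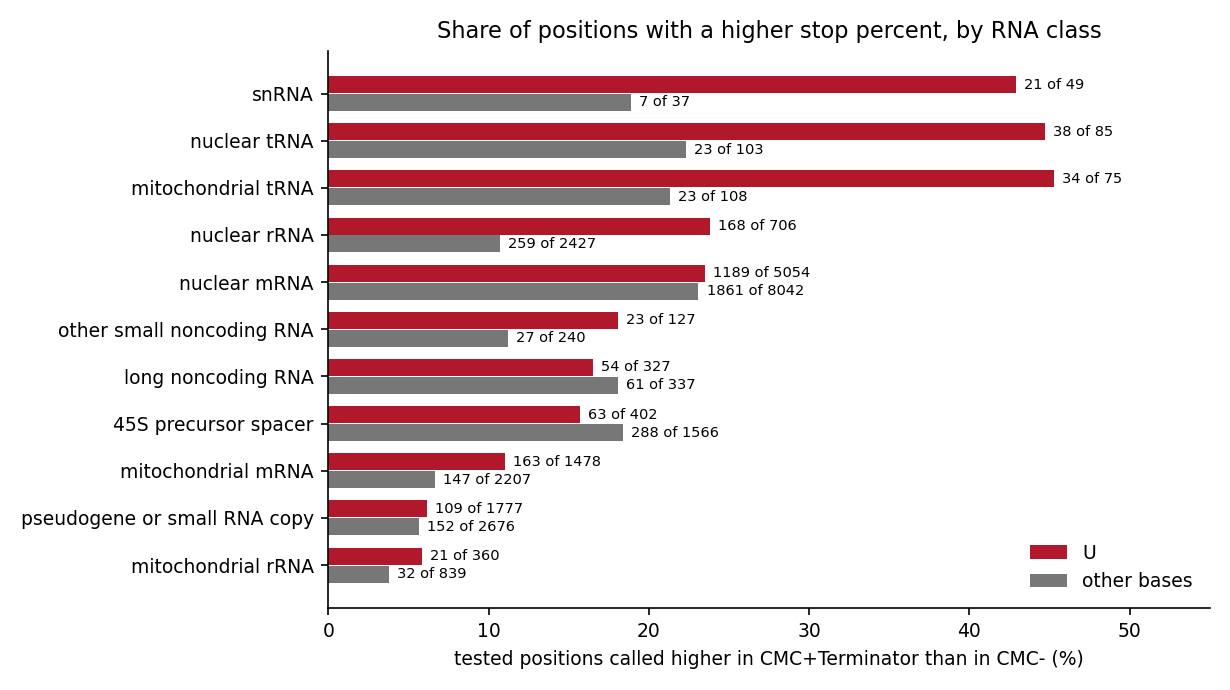
Bars give the percent of tested positions called higher in CMC+Terminator than in CMC- (x axis) in each RNA class, for U and for other bases, with called and tested counts beside each bar. U exceeds the other bases in snRNA (42.9% and 18.9%), both tRNA classes and, on this scale but not on library totals, nuclear rRNA (23.8% and 10.7%), and lies beside them in nuclear mRNA (23.5% and 23.1%).

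In snRNA and tRNA the share of U was higher among called than among tested positions. Of 457 tested positions in snRNA and the tRNA classes together, 45.7% were U; of 146 called, 63.7% were, of 80 called with at least a 4-fold change, 72.5% (71.6% of 81 scaled to library totals), and of 20 called at 8-fold or more, 65.0%. In nuclear rRNA U made up 22.5% of 3133 tested positions, 39.3% of 427 called and 64.3% of 84 called at 4-fold or more, but 24.9% of the 177 called at 4-fold or more when scaled to library totals. In nuclear mRNA it was 38.6% of 13096 tested, 1189 of 3050 called, 32.2% of 615 called at 4-fold or more and 44.8% of 29 called at 8-fold or more. Over all classes, 893 of the 29091 tested positions were called at 4-fold or more (3.07%), 344 of them at U (3.29%) and 549 at other bases (2.95%).

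**Figure D3:**
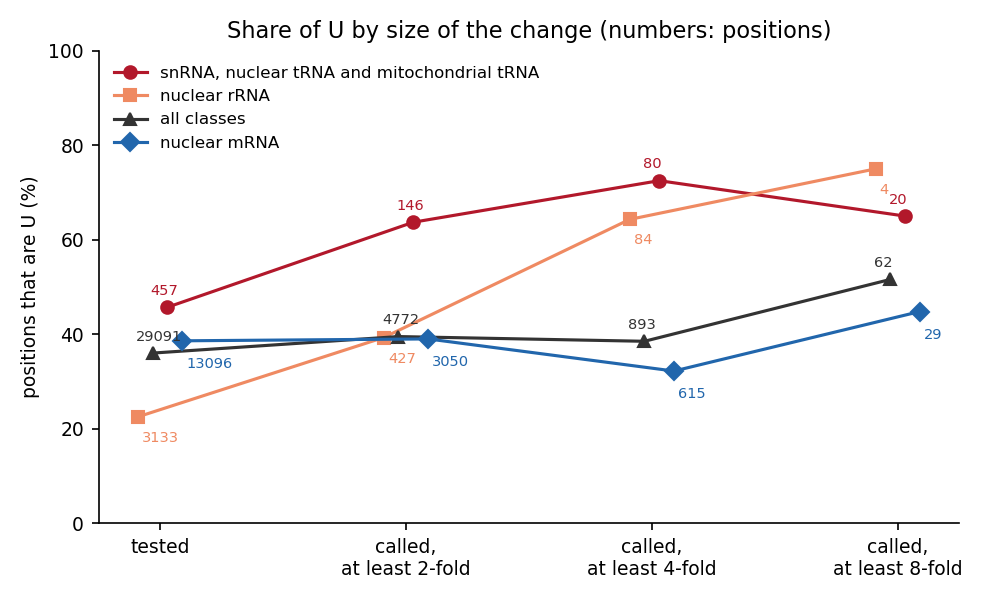
The percent of positions that are U (y axis, 0 to 100) among tested positions and among those called at 2, 4 and 8-fold or more, for 4 sets of RNA classes, with the number of positions beside each point. The snRNA and tRNA line reaches 72.5% and the rRNA line 64.3% at 4-fold, while the mRNA line is at 32.2%; at 8-fold the snRNA and tRNA line is lower (65.0%) and the mRNA line higher (44.8%). The points at 8-fold rest on 4 to 62 positions, and on the scale of library totals the rRNA share at 4-fold is 24.9%.

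Spliceosomal snRNAs gave the clearest separation. Of 26 nucleotides of U1, U2, U4, U5, U6 and U12 that are known pseudouridines, 22 were tested and 19 were called higher. Counted as sequences, 20 of 23 were called (87.0%, median log2 change 2.55), against 5 of the other 31 tested snRNA uridines (16.1%, median 0.46), which is near the background of 18.0%. Of the 23 sequences, 3 of U2 and 2 of U6 are listed under the names of copies (RNU2-2P and RNU6-4P) that share the sequence. The other 31 leave out uridines listed under the names of such copies, so the sets were not formed alike. The 4 that were not listed in both replicates were U2 nucleotide 15, U6 nucleotide 86 and U12 nucleotides 19 and 28.

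U4 snRNA, which pairs with U6 in the tri-snRNP, had the largest change. At RNU4-1 nucleotide 72 (chromosome 12, position 120293166, minus strand) 24 of 64 and 24 of 76 covering reads stopped in CMC+Terminator, against 4 of 88 and 2 of 127 in CMC-. The mean stop percent was 34.5 ± 4.19% in CMC+Terminator and 3.06 ± 2.10% in CMC- (SD, n = 2 each), a log2 change of 3.54 ± 0.30 (SE; adjusted p = 0.000507, edgeR quasi-likelihood with Benjamini-Hochberg adjustment). The libraries of the groups did not overlap, and the 95% Wilson intervals, which cover counting error only, ran from 26.7 to 49.7% and 22.2 to 42.7% in CMC+Terminator, against 1.78 to 11.1% and 0.433 to 5.56% in CMC-. Nucleotide 79 could be read separately in the 2 U4 genes, whose sequences differ near it. It stopped 38.9 ± 0.0793% of reads in CMC+Terminator and 10.9 ± 2.74% in CMC- in RNU4-1 (log2 1.86 ± 0.18), and 34.7 ± 5.54% and 9.28 ± 1.22% in RNU4-2 (log2 1.90 ± 0.17). At nucleotide 4 the 12.7 ± 2.28% in CMC+Terminator and 6.34 ± 1.52% in CMC- did not pass (log2 1.00 ± 0.26, adjusted p = 0.117 by edgeR).

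U5 snRNA aligns the exons in the spliceosome through the loop that holds nucleotides 43 and 46. At RNU5B-1 nucleotide 43 (chromosome 15, position 65304719, plus strand) 19 of 53 and 26 of 46 reads stopped in CMC+Terminator, against 3 of 60 and 5 of 75 in CMC-. That is 46.2 ± 14.6% in CMC+Terminator and 5.83 ± 1.18% in CMC- (SD, n = 2 each), log2 2.95 ± 0.23, the highest treated stop percent among the snRNA sites. The spread between the treated replicates was wide, and the lower of them was above both controls. Nucleotide 53 had 25.4 ± 1.41% in CMC+Terminator and 3.26 ± 0.0501% in CMC- (log2 2.91 ± 0.25), and nucleotide 46 had 18.8 ± 4.05% and 3.74 ± 3.28% (log2 2.28 ± 0.49), a call lost without the second CMC- library (log2 1.59, adjusted p = 0.116, edgeR).

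U2 snRNA, which recognises the branch point, carries the most known sites, and 11 of the 12 tested were called. They lay between 7.53% (nucleotide 43) and 18.7% (nucleotide 54) in CMC+Terminator, against 1.11% (nucleotide 39) to 5.58% (nucleotide 91) in CMC-. The largest log2 change was at nucleotide 44, where 17 of 125 and 13 of 124 reads stopped in CMC+Terminator, against 3 of 154 and 1 of 211 in CMC- (log2 3.32 ± 0.38). The exception was nucleotide 34, at 8.37 ± 1.16% in CMC+Terminator and 4.45 ± 0.00778% in CMC- (adjusted p = 0.175, edgeR). Several U2 sites rest on 3 to 5 control stop reads in all, and a single library decided some calls: nucleotides 6 and 7 were not called without the second CMC- library, nor nucleotide 37 without the first CMC+Terminator library, nor nucleotide 43 without the second.

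U6 snRNA forms part of the catalytic centre, and its nucleotides 31 and 40, listed under a copy that shares its sequence, had 22.0 ± 0.286% and 21.7 ± 4.29% in CMC+Terminator, against 3.38 ± 1.56% and 3.12 ± 0.195% in CMC- (log2 2.55 and 2.76). U1 snRNA pairs with the 5′ splice site through the stretch that holds nucleotides 5 and 6. Nucleotide 5, a sequence listed at 17 copies, stopped 187 of 1375 and 156 of 1316 reads in CMC+Terminator, against 10 of 465 and 13 of 555 in CMC- (log2 2.48 ± 0.16, adjusted p = 0.000186, edgeR). Nucleotide 6 had 14.8 ± 0.869% in CMC+Terminator and 7.34 ± 0.461% in CMC-, a log2 change of 1.00 ± 0.12 that fell short of 2-fold before rounding and was not called (adjusted p = 0.00189, edgeR).

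**Figure D4:**
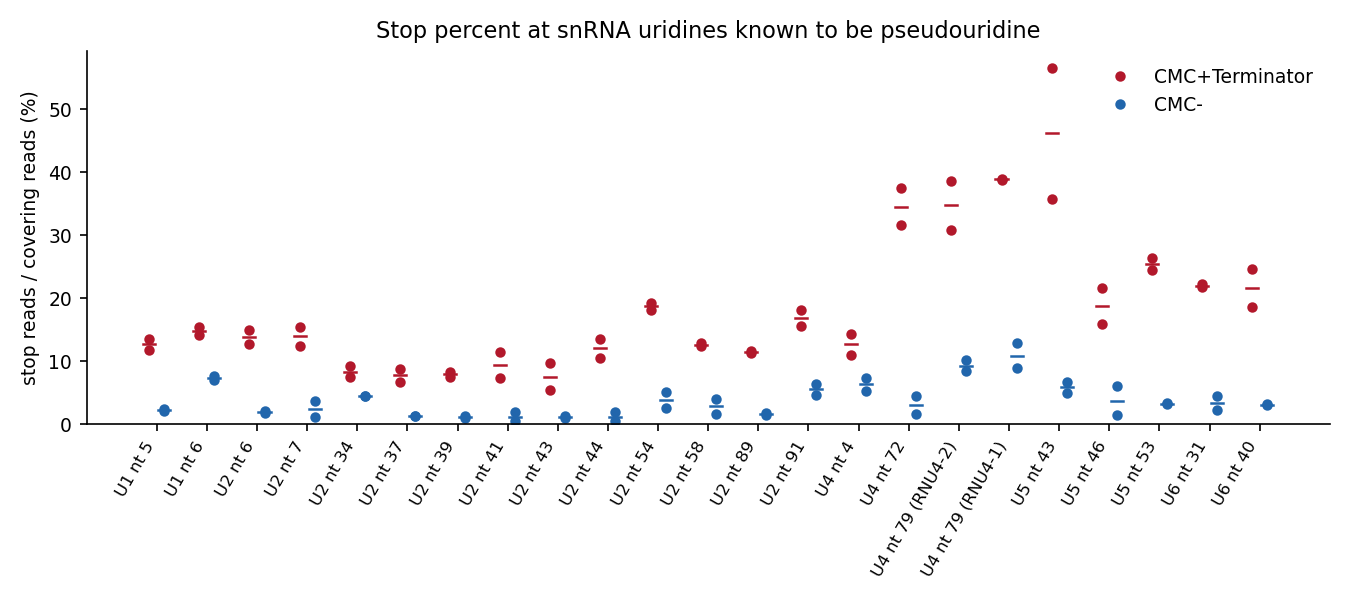
Stop percent (y axis) in each library at the tested snRNA uridines known to be pseudouridine, in order of snRNA and nucleotide; points are the 2 replicates and dashes their means, CMC+Terminator to the left of CMC-. The treated points lie above both controls at every nucleotide shown, with the widest gaps at U4 nucleotides 72 and 79 and U5 nucleotide 43 (46.2% and 5.83%), a direction that the listing fixes within each replicate.

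Nuclear tRNA calls included uridines of the T arm and the D arm. The T-arm motif GUUCNANNC, the context read by TRUB1, surrounded 12 tested tRNA uridines (sense strand only, stop at the second U), of which 9 were called (75.0%, median log2 2.24), against 29 of the other 73 tRNA uridines (39.7%). Without the second CMC- library 4 of the 12 (33.3%) and 18 of the other 73 (24.7%) were called, and without the first CMC+Terminator library 6 of the 12. Among all tested U, 0.21% lie in this motif. Where at least 10 control stop reads were also required, none of the 12 could be tested. Of the 42 other tRNA uridines that could, 7 were called (16.7%), against 14.4% of all U at that setting. With at least 100 covering reads in each library, 3 of the 12 were tested and 2 called, and 3 of 17 other tRNA uridines were called. At tRNA-His-GTG-1-8 nucleotide 54, in the T arm, 10 of 52 and 14 of 50 reads stopped in CMC+Terminator, against 2 of 71 and 3 of 96 in CMC-. The means were 23.6 ± 6.20% in CMC+Terminator and 2.97 ± 0.218% in CMC- (log2 2.94 ± 0.32, adjusted p = 0.00126, edgeR). At tRNA-Gly-GCC-1-1 nucleotide 53, in the same motif, they were 7.93 ± 2.25% and 1.13 ± 0.680% (log2 2.82 ± 0.40). The leucine tRNAs TAG-1-1 and AAG-2-4, whose long variable arm shifts the motif to nucleotide 64, had 27.1 ± 7.61% and 10.5 ± 3.57% in CMC+Terminator, against 3.08 ± 0.985% and 1.54 ± 0.216% in CMC-. The call in AAG-2-4 was lost without the second library of either group (adjusted p = 0.0554 and 0.0544, edgeR).

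The D arm gave a second group. The PUS7 context, UNUAA or UNUAG with the stop at the middle U (sense strand only), holds 1.47% of all tested U. It surrounded 8 tested tRNA uridines, and 7 were called (87.5%, median log2 2.57), against 31 of the other 77 (40.3%). Where at least 10 control stop reads were also required, 2 of the 8 could be tested and 2 were called, against 5 of 40 other tRNA uridines (12.5%). No tested U matched both motifs. The 7 lay at nucleotide 13 of tRNAs for histidine, glutamate, aspartate and glycine, the position at which PUS7 acts in tRNA. tRNA-His-GTG-1-8 nucleotide 13 had 33.8 ± 5.80% in CMC+Terminator and 4.88 ± 4.35% in CMC- (log2 2.83 ± 0.40). tRNA-Glu-CTC-1-2 nucleotide 13, the most deeply covered, stopped 39 of 241 and 33 of 181 reads in CMC+Terminator, against 8 of 340 and 10 of 352 in CMC- (log2 2.71 ± 0.18, adjusted p = 0.000182, edgeR). The aspartate tRNA GTC-2-1 had 19.7 ± 2.36% in CMC+Terminator and 3.39 ± 0.547% in CMC- at the same nucleotide (log2 2.49 ± 0.30). The glutamate tRNA TTC-5-1 had 16.8 ± 2.78% and 2.36 ± 1.32% (log2 2.65 ± 0.44). In the glycine tRNA CCC-chr1-135, at 24.3 ± 3.33% and 6.38 ± 2.41%, the call was lost on library totals (adjusted p = 0.381, edgeR) and without the second CMC- library (adjusted p = 0.0709, edgeR), and in the aspartate tRNA GTC-5-1 without the first CMC+Terminator or the second CMC- library (adjusted p = 0.13 in each, edgeR). Identical tRNA genes share reads, so a value belongs to the sequence and not to 1 gene: the histidine sequence at nucleotide 13 is listed at 9 copies and the glutamate sequence at 8.

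Mitochondrial tRNAs, which the mitochondrial genome encodes and which carry their own set of modifications, reached changes as large as the snRNAs. In MT-TE, the tRNA for glutamate, nucleotide 25 (position 14718 of the mitochondrial genome, minus strand) stopped 22 of 108 and 10 of 87 reads in CMC+Terminator, against 5 of 331 and 4 of 350 in CMC-. Its means were 15.9 ± 6.28% in CMC+Terminator and 1.33 ± 0.260% in CMC- (log2 3.53 ± 0.25, adjusted p = 0.000271, edgeR). MT-TH, the tRNA for histidine, had 23.3 ± 1.57% and 2.12 ± 0.138% at nucleotide 24 (log2 3.38 ± 0.30), and MT-TV, the tRNA for valine, 19.4 ± 0.784% and 2.38 ± 0.219% at nucleotide 65 (log2 3.01 ± 0.19). Large changes also occurred at bases that cannot be pseudouridine: the C next to it in MT-TV, nucleotide 64, had 16.0 ± 2.67% in CMC+Terminator and 1.43 ± 0.376% in CMC- (log2 3.43 ± 0.21), and the A at nucleotide 23 of MT-TM, the tRNA for methionine, 18.1 ± 0.741% and 1.81 ± 0.454% (log2 3.28 ± 0.18). These 2 and a G in the mRNA of EZR (ezrin, which ties actin to the plasma membrane), at 18.6 ± 1.36% and 1.74 ± 0.717%, were the largest called changes at bases other than U, among positions with at least 5 control stop reads.

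Nuclear rRNA was covered by up to 26488 reads at the sites named here. The 18S rRNA had 69 of 239 U called (28.9%) and 75 of 582 other positions (12.9%), and the 28S rRNA 97 of 437 U (22.2%) and 176 of 1750 other positions (10.1%). In 5.8S rRNA the order was the other way, with 2 of 21 U (9.52%) and 8 of 56 other positions (14.3%) called, and in 5S rRNA none of 9 tested U and none of 39 other positions was called. The 3 largest changes at U were in 28S rRNA, the RNA of the large ribosomal subunit that holds the peptidyl transferase centre. Position 3804 of the annotated RNA28SN2 gene (chromosome 21, position 8217690, plus strand) stopped 2778 of 15701 and 3391 of 20203 reads in CMC+Terminator, against 335 of 16901 and 395 of 23298 in CMC-. The means were 17.2 ± 0.642% in CMC+Terminator and 1.84 ± 0.203% in CMC- (log2 3.24 ± 0.09, adjusted p = 2.77e-05, edgeR). Position 3744 had 12.8 ± 0.0766% and 1.39 ± 0.128% (log2 3.22 ± 0.09), and position 4518 had 13.8 ± 0.768% and 1.53 ± 0.137% (log2 3.19 ± 0.10). Counts at annotated copies of the rRNA genes are 1 measurement and were used once.

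Mitochondrial rRNA and mRNA changed less. In mitochondrial rRNA 21 of 360 U (5.83%) and 32 of 839 other positions (3.81%) were called, both below the background of 18.0% and 15.5%. Among U with at least 5 control stop reads the largest change was at nucleotide 1397 of MT-RNR2, the 16S rRNA of the mitochondrial ribosome (mitochondrial position 3067), at 4.31 ± 0.159% in CMC+Terminator and 1.09 ± 0.136% in CMC- (log2 1.96 ± 0.13). Mitochondrial mRNA had 163 of 1478 U (11.0%) and 147 of 2207 other positions (6.66%) called, an order that was not kept on library totals (0.812% of U and 0.861% of other bases). Without the second CMC- library the shares were 5.68% and 3.31%, and without the first CMC+Terminator library 6.97% and 4.03%. MT-CO3, a subunit of cytochrome c oxidase, stopped 61 of 637 and 92 of 734 reads at nucleotide 699 in CMC+Terminator, against 28 of 1111 and 33 of 1740 in CMC- (log2 2.39 ± 0.19). MT-ND5 of complex I had 5.43 ± 1.61% and 0.839 ± 0.161% at nucleotide 469 (log2 2.63 ± 0.28), and MT-CYB of complex III 7.44 ± 1.15% and 1.40 ± 0.252% at nucleotide 458 (log2 2.35 ± 0.22). In other small noncoding RNA, 23 of 127 U (18.1%) and 27 of 240 other positions (11.2%) were called. RN7SK, the RNA that holds the elongation factor P-TEFb inactive, had 25.1 ± 1.17% in CMC+Terminator and 5.49 ± 1.67% in CMC- at nucleotide 249 (log2 2.22 ± 0.20), and the U3 snoRNA SNORD3A, which acts in the first cleavages of the rRNA precursor, 17.4 ± 1.09% and 3.97 ± 1.58% at nucleotide 8 (log2 2.08 ± 0.27). Of the long noncoding RNAs, the nuclear RNA MALAT1 had 12.7 ± 4.02% and 2.11 ± 0.157% at its most changed uridine (log2 2.50 ± 0.37), a call lost on library totals (adjusted p = 0.0913, edgeR) and without the first CMC+Terminator library (adjusted p = 0.0655, edgeR), and the snoRNA host transcript SNHG29 had 30.6 ± 3.88% and 4.99 ± 2.01% (log2 2.45 ± 0.27).

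In nuclear mRNA, called uridines lay in 301 of 489 genes with a tested U, but the share of U called, on covering reads, was close to that of the other bases. Described here are uridines with the largest changes among those with at least 5 control stop reads. RPL19, a protein of the large subunit, stopped 18 of 83 and 22 of 122 reads in CMC+Terminator, against 2 of 158 and 5 of 227 in CMC-. The means were 19.9 ± 2.58% in CMC+Terminator and 1.73 ± 0.662% in CMC- (log2 3.37 ± 0.29, adjusted p = 0.000508, edgeR). RPL11, a large-subunit protein that also binds the p53 regulator MDM2, had 12.3 ± 0.285% in CMC+Terminator and 1.44 ± 0.234% in CMC- (log2 3.02 ± 0.26). RPL19 was read at position 39201278 of chromosome 17 and RPL11 at position 23693828 of chromosome 1, both on the plus strand. The annotation places RPL11 in the 3′ UTR of the transcript that the tables assign and RPL19 in an exon of a transcript without a coding sequence. PLEC, which encodes the cytoskeletal linker plectin, had 39.6 ± 7.67% and 4.81 ± 0.911% (log2 2.97 ± 0.28) in its coding sequence, the highest treated level of the mRNA sites described here.

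A further 6 mRNA sites lay between log2 2.77 and 2.87. EIF1, which guards the choice of the start codon, had 27.3 ± 3.24% in CMC+Terminator and 4.08 ± 0.889% in CMC-. EEF2, the translocation factor of elongation, had 11.8 ± 0.654% and 1.75 ± 0.492%, and SLC25A3, the mitochondrial phosphate carrier, 13.2 ± 0.549% and 1.97 ± 1.14%. Libraries disagreed at the other 3. FAU, a fusion of a ubiquitin-like protein with a ribosomal protein, stopped 7 of 86 and 1 of 141 reads in the CMC- libraries, and its log2 change of 2.87 ± 0.55 became 1.71 without the second of them and 5.03 without the first. It stopped 22 of 88 and 26 of 90 reads in CMC+Terminator. MDH2, the mitochondrial malate dehydrogenase, stopped 11 of 27 and 5 of 47 reads in CMC+Terminator, against 3 of 70 and 2 of 84 in CMC-, and was not called without the first CMC+Terminator library (log2 1.66, adjusted p = 0.232, edgeR) or without the second CMC- library (log2 2.27, adjusted p = 0.066, edgeR). NME2, a nucleoside diphosphate kinase, stopped 6 of 76 and 11 of 66 reads in CMC+Terminator, against 2 of 144 and 3 of 152 in CMC-, and was not called without the second CMC+Terminator library (log2 2.16, adjusted p = 0.0674, edgeR).

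**Figure D5:**
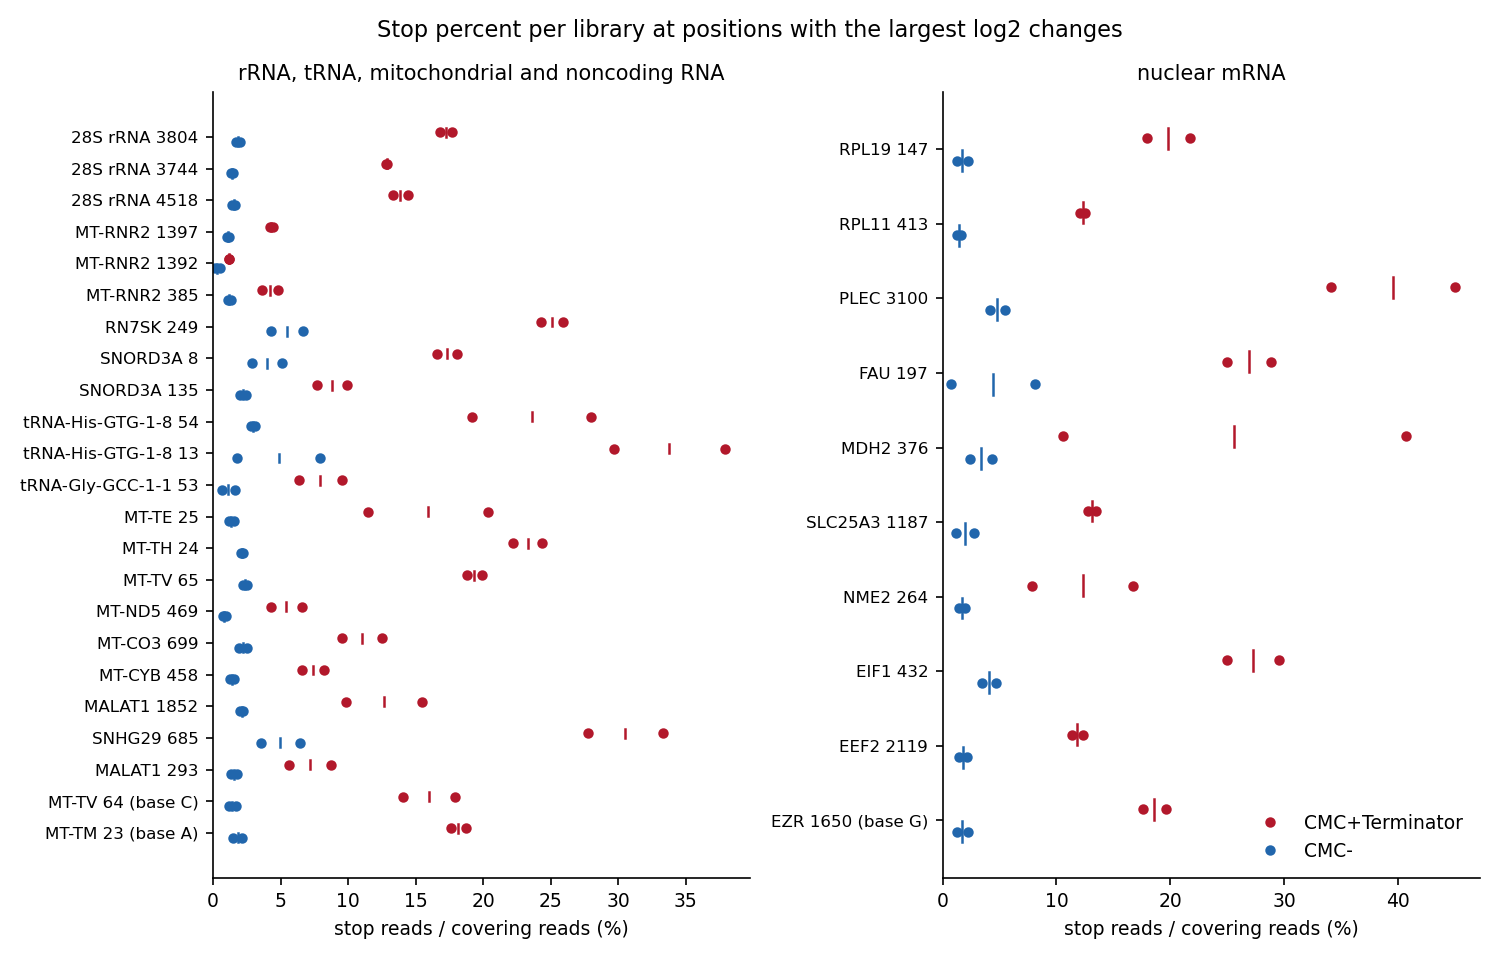
Stop percent (x axis) in each library at positions with the largest log2 changes per RNA class, snRNA apart, and at the 3 largest changes at other bases; points are the 2 replicates and ticks their means, CMC+Terminator above CMC-, and names give the gene and the nucleotide in the annotated transcript. The treated points lie to the right of both controls at every position, an order that the listing fixes within each replicate, closely paired in 28S rRNA (17.2 ± 0.642%) and far apart in MDH2 (25.7 ± 21.3%).

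Regions of mRNA differed, and U followed the other bases in each. In 5′ UTRs 25 of 237 U (10.5%) and 48 of 521 other positions (9.21%) were called, in coding sequence 432 of 1766 U (24.5%) and 712 of 2739 other positions (26.0%), and in 3′ UTRs 148 of 639 U (23.2%) and 212 of 849 other positions (25.0%). The PUS7 context held 40 of the 5054 mRNA uridines (0.791%), of which 10 were called (25.0%), near the 23.5% of the other mRNA uridines. On library totals 3 of these 10 calls were kept, 5 without the first CMC+Terminator library and 6 without the second CMC- library. Those with the largest changes were in PKM, which encodes pyruvate kinase (log2 2.36 ± 0.32), and in the alpha-tubulin genes TUBA1B (log2 2.44 ± 0.41) and TUBA1C (log2 2.24 ± 0.38). The tubulin sites share the letters UGUAG around the stop and list the same stop reads in every library, 8 and 5 in CMC+Terminator and 3 and 4 in CMC-. Multi-mapped reads stand at every copy, so the pair may be 1 measurement, which would leave 9 calls. Both calls were lost on library totals (log2 1.19, adjusted p = 0.191 in each, edgeR) and without the first CMC+Terminator library (adjusted p = 0.0884 in TUBA1B and 0.101 in TUBA1C, edgeR). In the looser context of PUS1 (any base but G, then a purine, the U of the stop, an A and a purine), which holds 2.23% of all tested U and overlaps that of PUS7 at 73, 14 of 50 mRNA uridines were called. The TRUB1 context held 5 mRNA uridines, and 1 was called, in the 3′ UTR of SLC2A1, the glucose transporter GLUT1 (chromosome 1, position 42926727, minus strand). It stopped 8 of 24 and 15 of 33 reads in CMC+Terminator, against 1 of 31 and 2 of 54 in CMC- (ratio of the pooled stop percents 11.4, 95% counting interval 3.45 to 59.5). Runs of at least 4 U held 125 mRNA uridines, 25 of them called (20.0%).

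The gene lists gave shares around that of all nuclear mRNA, 23.5% at U and 23.1% at other bases. Large-subunit ribosomal proteins had 261 of 1022 U called (25.5%, other bases 20.5%) in 44 of 46 genes, and small-subunit ribosomal proteins 135 of 668 (20.2%, other bases 22.4%) in 30 of 31 genes. RPL37A of the large subunit stopped 29 of 118 and 32 of 131 reads in CMC+Terminator, against 7 of 160 and 8 of 236 in CMC- (log2 2.66 ± 0.20). RPS10 of the small subunit stopped 34 of 170 and 37 of 167, against 5 of 236 and 15 of 397 (log2 2.75 ± 0.20), in a sequence listed at 8 copies. Translation elongation and initiation factors had 125 of 642 (19.5%, other bases 17.1%), with EEF1G, a subunit of the elongation factor that reloads eEF1A with GTP, at 24.0 ± 0.529% in CMC+Terminator and 4.15 ± 0.0764% in CMC-. Glycolytic enzymes had 71 of 258 (27.5%, other bases 23.3%), led by PKM and LDHA (lactate dehydrogenase A, 14.4 ± 0.146% in CMC+Terminator and 2.71 ± 0.292% in CMC-). Heat shock proteins and chaperones had 53 of 228 (23.2%, other bases 28.8%), with PDIA3, a disulfide isomerase of the endoplasmic reticulum, at 37.7 ± 4.87% and 6.15 ± 3.09%. Cytoskeletal genes had 108 of 469 (23.0%, other bases 25.4%), with the actin-binding TMSB10 at 28.6 ± 2.17% and 4.18 ± 0.495%. Proteasome and ubiquitin genes had 15 of 110 (13.6%, other bases 15.8%). Splicing factors had 8 of 40 (20.0%, other bases 14.5%), with PTBP1, a regulator of alternative exons, at 24.4 ± 1.86% in CMC+Terminator and 6.12% in each CMC- library, a call lost without the second CMC+Terminator or the second CMC- library (adjusted p = 0.0607 and 0.0817, edgeR). Proteins of the H/ACA and box C/D complexes and the nucleolus had 5 of 15 (33.3%, other bases 13.6%), all in NCL (nucleolin) and NPM1 (nucleophosmin). On library totals the largest of them were not called (NCL log2 0.90, adjusted p = 0.285, and NPM1 log2 0.94, adjusted p = 0.283, edgeR). None of the 13 pseudouridine synthase genes had a tested U in its mRNA. The 1 listed U of DKC1 had 8 and 11 covering reads in CMC-, under the minimum for a test.

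The letters around called uridines were set beside those around uridines that were tested and not called. In nuclear mRNA the base after a called U was G in 66.2%, against 58.8% for tested U that were not called, and the median G and C content of the 21 bases was 57.1%, against 52.4%. In nuclear rRNA it was G in 25.6%, against 32.7%, and the median G and C content was 47.6%, against 57.1%. The bases next to a called U were themselves called more often: of the 2885 called positions at other bases, 490 (17.0%) lay next to a called U, against 588 of 15740 that were not called (3.74%). In nuclear rRNA this was 34.4% of called and 3.41% of other tested positions. Neighbouring positions share covering reads but not stop reads, and what part of the calls at other bases comes from neighbours was not tested. The share called also moved with depth, at U and at other bases alike. At U it was 22.9% (median log2 1.05) among positions with 20 to 31 stop reads, and 14.2% (median 0.45) among those with 117 to 14853. At other bases it was 20.5% (median 0.92) and 10.0% (median 0.37). Depth and RNA class were not separated: the median number of stop reads was 1040 at U of nuclear rRNA and 35 at U of nuclear mRNA.

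In HEK293T cells, which share no library with HCT116, U also exceeded the other bases in nuclear rRNA and snRNA and lay beside them in mRNA, at positions listed in both cell lines. There 115 of 505 U (22.8%) and 53 of 1500 other positions (3.53%) of nuclear rRNA were called higher in HEK293T CMC+Terminator than in its CMC-, 8 of 12 U (66.7%) and 1 of 9 other positions (11.1%) of snRNA, and 415 of 2536 U (16.4%) and 544 of 3433 other positions (15.8%) of nuclear mRNA. No library holds both lines, so differences between the lines cannot be told apart from differences between their libraries. HEK293T library totals were 16327067 and 15794164 reads in CMC+Terminator and 19063722 and 15676715 in CMC-, all below those of HCT116. HEK293T counts were also estimated and rounded, whereas those of HCT116 were raw. What part of the differences given next comes from cell line was not tested. In the fit of both lines, 1393 of 4713 shared U were called in HCT116 (29.6%) and 671 in HEK293T (14.2%). Of these, 430 were called in both, which is 30.9% of the first and 64.1% of the second. At other bases 424 were called in both, 22.6% of the 1880 in HCT116 and 56.8% of the 747 in HEK293T, whose backgrounds were 25.1% and 9.99%. The test of the difference in response called none of the 4713 U (edgeR; at unadjusted p under 0.05, 177 were stronger in HCT116 and 33 weaker), and 1 without the replicate block. On library totals it called 14 and the direction turned, with 52 stronger and 434 weaker at unadjusted p under 0.05. The 7476 other bases went the same way at unadjusted p under 0.05 (edgeR). Of them, 289 were stronger in HCT116 and 70 weaker on covering reads, and 167 stronger and 827 weaker on library totals. The median difference in log2 change, HCT116 minus HEK293T, was 0.13 at U and 0.12 at other bases on covering reads. On library totals it was -0.34 and -0.31. The log2 change at 28S rRNA 3804 was 3.24 in HCT116 and 2.97 in HEK293T. At RNU4-1 nucleotide 72 it was 3.54 in HCT116 and 3.22 in HEK293T. Named sites did not all lie this close. Most were picked for a large change in HCT116, which favours a smaller one in HEK293T, and none of the following differences passed adjustment. At 28S rRNA 3744 the log2 change was 3.22 in HCT116 and 2.09 in HEK293T (unadjusted p = 0.00191, adjusted p = 0.403, edgeR). At MT-ND5 nucleotide 469 it was 2.61 and 0.53 (unadjusted p = 0.00244, adjusted p = 0.457, edgeR). At MT-RNR2 nucleotide 385 it was 1.84 and 0.81 (unadjusted p = 0.0016, adjusted p = 0.362, edgeR). Some were higher in HEK293T, such as nucleotide 13 of the glycine tRNA CCC-chr1-135 (1.88 and 2.51, unadjusted p = 0.405, edgeR).

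The HCT116-shDKC1 libraries address whether a DKC1 hairpin alters these stops. No U of 6415 listed in both differed in response by the same test (edgeR; at unadjusted p under 0.05, 124 were stronger in HCT116 and 6 weaker; smallest adjusted p 0.0661), and none did without the replicate block or on library totals. Of these shared U, 1687 were called in HCT116 (26.3%) and 1298 in HCT116-shDKC1 (20.2%). Other bases moved the same way: of 10304, 151 were stronger in HCT116 and 17 weaker at unadjusted p under 0.05 (edgeR). The median difference in log2 change, HCT116 minus HCT116-shDKC1, was 0.07 at U and 0.07 at other bases. On library totals 70 U were stronger and 12 weaker at that p (edgeR), and 68 and 42 other bases. At the snRNA pseudouridines the median log2 change was 2.52 in HCT116 and 1.98 in HCT116-shDKC1 over the 22 shared sequences, of which 18 were called in HCT116-shDKC1. The difference passed an unadjusted p of 0.05 at none of them with edgeR. Of the named 28S rRNA sites, which were picked for a large change in HCT116, only 3744 had a lower stop percent in HCT116-shDKC1 CMC+Terminator. 28S rRNA 3804 stopped 17.2% in HCT116 CMC+Terminator and 17.7% in HCT116-shDKC1 CMC+Terminator (log2 3.24 and 3.11, unadjusted p = 0.353, edgeR). At 28S rRNA 4518 the values were 13.8% and 14.1% (log2 3.19 and 3.13, unadjusted p = 0.681, edgeR). At 28S rRNA 3744 the stop percent was 12.8 ± 0.0766% in HCT116 CMC+Terminator and 10.1 ± 0.200% in HCT116-shDKC1 CMC+Terminator, with log2 changes of 3.21 and 2.70 in the fit of both (unadjusted p = 0.00405, adjusted p = 1.0, edgeR). How far DKC1 was reduced cannot be read from these tables, which list 2 and 3 DKC1 positions in HCT116 and 2 and 1 in HCT116-shDKC1.

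The CMC+ libraries of HCT116 made without Terminator stand in other tables, which hold estimated counts and do not list every position, so their values are given beside those above and were not tested. At 28S rRNA 3804 CMC+ gave 4.92 ± 0.301% stops, between 17.2% in CMC+Terminator and 1.84% in CMC-, and at 28S rRNA 4518 it gave 6.70 ± 1.17%, between 13.8% and 1.53%. RN7SK nucleotide 249 had 13.8 ± 2.11% in CMC+, against 25.1% in CMC+Terminator and 5.49% in CMC-, and MT-TE nucleotide 25 had 9.72 ± 1.90%, against 15.9% and 1.33%. In U4 snRNA the CMC+ mean was nearer to that with Terminator than to that of CMC-, 28.1 ± 14.6% at nucleotide 72 (34.5% with Terminator) and 34.6 ± 2.37% at nucleotide 79 of RNU4-1 (38.9% with Terminator). Of the 28 uridines named in all classes that have a CMC+ value, it lay between the groups at 25 and above CMC+Terminator at 3, all in snRNA. These were U1 nucleotide 5 (13.5 ± 0.953% in CMC+, against 12.7% in CMC+Terminator and 2.25% in CMC-), U1 nucleotide 6 (17.5 ± 0.289%, against 14.8% and 7.34%) and U4 nucleotide 4 (19.3 ± 2.29%, against 12.7% and 6.34%). Most named uridines were picked for a large change between CMC+Terminator and CMC-, which favours a CMC+ value between the groups. The count of 25 is thus a description. The 7 textbook snRNA uridines with a CMC+ value were named whatever the size of their change, though the listing selects them too. Of these 7, 4 lay between and 3 above.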

How the data were processed

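Both groups were measured as RT stops per position. The authors' deposited tables give stop reads and covering reads as raw counts for HCT116 and HCT116-shDKC1, and as estimated counts, not whole numbers, for HEK293T and for CMC+ without Terminator, as their values show. These estimated counts were deposited by the authors with no stated method, and were rounded. The authors' deposited RPM, scaled to each library's reads, gave the library totals. Per the submitters' processing notes, cutadapt 2.8 and STAR were used with hg38. Multi-mapped reads appear at every copy, so identical sequences were counted once (up to 24 copies); near-identical copies stay apart and can share reads. Stop reads were fitted with edgeR 4.0.16 (R 4.3.3), with log covering reads as offset and the replicate number as a block, since the series text makes a replicate a CMC-/CMC+ pair; deviations of same-numbered libraries correlated at 0.17 across positions. HEK293T and HCT116-shDKC1 were compared by interaction terms over 8 libraries. An exact permutation test of 2 against 2 libraries cannot go below p = 0.333. On simulated data of this comparison (29091 positions), all 4-fold changes were called, as were 24% of 2-fold changes (50% passed the adjusted p) and 9 unchanged positions. The changed positions were drawn from those with a mean of at least 10 stop reads per library, and many tested positions have fewer. The simulated counts also had no listing rule, so these numbers need not hold for the listed positions. Transcript regions come from GENCODE 29. Named uridines were the largest log2 changes per class with at least 5 control stop reads, textbook snRNA sites, up to 3 per gene list, and, chosen after their values were seen, called U in the PUS7 and TRUB1 contexts. Members and lists were chosen with earlier results of these data known. Some named positions are not reported here. Other settings follow below.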

Additional observations from a re-analysis of the deposited data

How the results depend on the processing

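The count of U called higher (1887) and of other bases called higher (2885) depended on the scale and the depth, and in each case below the cause was not tested unless fewer positions or libraries entered. Scaled to library totals, 1098 U and 3157 other bases were called higher and 14 U and 28 other bases lower. With TMM, 762 U were higher, 130 U lower and 235 other bases lower; with DESeq2's size factors 782, 110 and 200. These scales move the median log2 change of all positions from 0.61 to 0.18, -0.03 and -0.02. DESeq2 with covering reads called 441 U and 732 other bases. Fewer positions were tested with at least 10 stop reads in 2 libraries (1196 U and 1910 other bases called) and with at least 100 covering reads (1023 and 1758), and more when each copy was tested (3461 and 5018). Leaving out 1 library in turn, without the block, gave 873 to 1841 U and 1338 to 2745 other bases: 873 and 1338 without the second CMC- library, and 1096 and 1666 without the first CMC+Terminator library. Without the replicate block 1895 U and 2908 other bases were called, and the difference from HEK293T was called at 1 U (14 on library totals). The snRNA pseudouridines kept 18 to 22 calls of 23 under these scalings and left-out libraries, and 11 with DESeq2 on covering reads. DESeq2 on covering reads called 167 of 706 U in nuclear rRNA, 10 of 49 in snRNA, 7 of 85 in nuclear tRNA (other bases 1 of 103) and 119 of 5054 in nuclear mRNA (other bases 260 of 8042). In the T-arm motif of tRNA it kept 1 of 9 calls, in the PUS7 context 3 of 7 in tRNA and 3 of 10 in mRNA, and the call in SLC2A1 was lost. With TMM 7 of the 9 T-arm calls and 1 of the 10 mRNA calls in the PUS7 context were kept. Of simulated 2-fold changes 50% passed the adjusted p and 24% were called, since a call also needs an estimate of at least 2-fold.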
